A study of Homo sapiens with 6 samples.

Results

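A set of 9 genes of the tumour necrosis factor (TNF) superfamily and its receptors were followed in KGN, an established human granulosa tumour line of the ovary, after knockdown of OGT. They are the ligand genes TNFSF10 and TNFSF13B, and the receptor genes TNFRSF21, TNFRSF10A, TNFRSF10B, TNFRSF10D, FAS, TNFRSF1A and TNFRSF12A. These 9 of the 20036 genes in the deposited table were chosen by their measured levels and differences between the groups in the same libraries, so these values are only described here. Calls and intervals given for the 9 below belong to that description and are not evidence of a difference. The product of OGT, O-GlcNAc transferase, adds single sugar residues to serines and threonines of proteins in the nucleus and cytosol.

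Wild-type KGN cells were transfected, with a Lipofectamine reagent, with a control small interfering RNA (siNC) or with either of a pair aimed at human OGT mRNA (siOGT1 and siOGT2), and total RNA was taken 48 hours later. Each of the 3 groups has 2 libraries, 6 in all. None is untransfected, so every difference is relative to cells given siNC. The effect of siNC itself was not measured. The sources used here do not say whether paired libraries are separate cultures, so p-values measure only the spread between these libraries, which may be technical. OGT itself stood at 22.4 and 23.4 FPKM (fragments scaled by gene length and library size) under siNC, 13.8 and 12.9 under siOGT1, and 14.3 and 14.7 under siOGT2. That is 58.3% of the siNC mean with siOGT1 and 63.2% with siOGT2, and both knockdown groups lay below both control libraries.

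TNF superfamily ligands are trimeric proteins, anchored in the membrane or shed from it, that cluster their receptors on the target cell. Receptors with an intracellular death domain recruit adaptors such as FADD or TRADD. From there the signal runs either to caspase-8 and apoptosis or, through RIPK1, TRAF proteins and the inhibitor-of-apoptosis ligases, to NF-kappa B. In the ovary these ligands and receptors are best known from follicular atresia, in which granulosa cells die by apoptosis. TNFSF10 encodes TRAIL and TNFSF13B encodes BAFF, a survival factor for B cells, and both are known as genes that interferon can induce.

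The promoter windows of the 3 genes with the widest differences are shown because TNFSF10 and TNFSF13B carry letters that TNFRSF21 does not. Each window runs from 250 bases before to 50 bases after a RefSeq gene start in GRCh38.p14, 5′ to 3′ on the gene's strand. Capitals mark matches to GAAANNGAA, on either strand, the core of the interferon-stimulated response element (ISRE). The TNFSF10 window is chr3:172523381-172523680 (minus strand). The TNFSF13B window, the second of a pair of start sites in the table, is chr13:108269468-108269767 (plus strand). Both TNFSF13B windows lie inside the gene as annotated in GENCODE 29, which starts at 108251240, and that start was not searched. The TNFRSF21 window is chr6:47309856-47310155 (minus strand).
TNFSF10: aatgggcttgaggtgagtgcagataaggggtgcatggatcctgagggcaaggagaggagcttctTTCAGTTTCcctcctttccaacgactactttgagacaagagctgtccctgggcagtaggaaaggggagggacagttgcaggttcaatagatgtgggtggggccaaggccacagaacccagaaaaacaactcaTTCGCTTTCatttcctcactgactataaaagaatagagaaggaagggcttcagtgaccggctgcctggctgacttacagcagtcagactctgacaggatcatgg
TNFSF13B: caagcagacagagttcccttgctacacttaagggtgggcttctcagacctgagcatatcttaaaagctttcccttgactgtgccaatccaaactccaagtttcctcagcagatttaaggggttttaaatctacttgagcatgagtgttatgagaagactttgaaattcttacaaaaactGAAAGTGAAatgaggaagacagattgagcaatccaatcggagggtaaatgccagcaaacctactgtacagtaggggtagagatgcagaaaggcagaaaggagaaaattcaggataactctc
TNFRSF21: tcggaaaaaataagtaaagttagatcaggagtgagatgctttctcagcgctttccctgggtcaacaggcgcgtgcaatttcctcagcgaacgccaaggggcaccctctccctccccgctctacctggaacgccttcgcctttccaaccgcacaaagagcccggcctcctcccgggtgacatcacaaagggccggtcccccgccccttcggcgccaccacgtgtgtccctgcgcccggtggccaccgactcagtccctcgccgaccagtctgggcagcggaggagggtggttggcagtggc

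TNFSF10 holds 2 matches to the ISRE core, both on the opposite strand, starting at positions -186 and -54 from the gene start (TTCAGTTTC and TTCGCTTTC). TNFSF13B holds 1, GAAAGTGAA, which starts at position -71 from the start site shown and at position 19 from the other. The TNFRSF21 window holds none. Of all 35116 RefSeq windows of 300 bases, 8.11% hold at least 1 such match. The other motifs were searched on both strands: TTCNNNGAA (the gamma-interferon activated site), TGANTCA (AP-1) and the kappa B motif, present in 7.66%, 7.71% and 11.3% of all windows. None of them was found in the windows of TNFSF10, TNFSF13B or TNFRSF21. Windows were found for 5 of the 9 genes. FAS, with 3 windows, held TGAATCA in its window 1 and a kappa B match in its window 3, and TNFRSF1A held no match to any of the 4. A match describes letters only, and neither a match nor its absence shows whether a factor binds.

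TNFSF10 (ENSG00000121858, GRCh38 chromosome 3, 172505508 to 172523507, minus strand) encodes TRAIL, the ligand of the death receptors DR4 and DR5. Its level was 14.3 and 12.8 FPKM in the siNC libraries, 5.24 and 4.18 after siOGT1, and 2.41 and 1.86 with siOGT2. The 3 groups did not overlap, and siOGT2 was lowest. In means this is 13.6 ± 1.06 FPKM for control, 4.71 ± 0.751 after siOGT1 and 2.13 ± 0.389 after siOGT2 (SD, n = 2), or 34.8% and 15.7% of control. On the log2(FPKM + 1) scale, which understates changes of low genes, the difference from siNC was -1.35 with siOGT1 and -2.22 with siOGT2 (SE 0.103 for each). Of the 10547 genes tested, this was the fifth lowest difference with siOGT1 and the third lowest with siOGT2. The values rest on 886 to 992 recovered reads per siNC library and 107 to 150 per siOGT2 library. Counting error alone would give a spread of 8.8% between the siOGT2 libraries, and 18.2% was observed.

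TNFSF13B (ENSG00000102524, chromosome 13, 108251240 to 108308484, plus strand) stood at 7.83 and 6.68 FPKM under siNC, 2.73 and 2.63 under siOGT1, and 1.88 and 1.85 under siOGT2. The order of the groups was that of TNFSF10, again without overlap. The means were 36.9% of control with siOGT1 and 25.7% with siOGT2. The log2 differences were -1.16 and -1.52 (SE 0.0708). The receptors that BAFF is known to bind were hardly measured in these cells: TNFRSF13B, TNFRSF13C and TNFRSF17 averaged 0.01, 0.00452 and 0.155 FPKM over the 6 libraries and were not tested.

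TNFRSF21 (ENSG00000146072, chromosome 6, 47231532 to 47309905, minus strand) encodes death receptor 6, a death-domain receptor best known from neurons and lymphocytes. It stood at 21.7 and 22.6 FPKM with siNC and at 6.06 and 6.0 with siOGT1, but at 20.7 and 20.6 with siOGT2. The siOGT1 libraries lay far below the other 4, while those of siOGT2 lay just below both control libraries. The means were 22.2 ± 0.607 FPKM for control, 6.03 ± 0.0416 after siOGT1 and 20.7 ± 0.0955 after siOGT2 (SD, n = 2), so 27.2% of control with siOGT1 and 93.2% with siOGT2. On the log2(FPKM + 1) scale the difference from siNC was -1.72 with siOGT1, the lowest of all 10547 genes tested, and -0.10 with siOGT2 (SE 0.0378). That scale understates changes of low genes, so this rank need not hold for percent of control. Between the siRNAs it was -1.62, again the lowest of all genes tested. OGT differed between the same groups by -0.11 (SE 0.0435). The summed level of 5 theca and stroma markers, mostly LUM, moved in the same order, at 10.0 to 10.1 FPKM with siNC, 8.4 to 8.65 with siOGT1 and 10.0 to 10.1 with siOGT2, and its part in the TNFRSF21 difference was not tested. The TNFRSF21 values rest on 401 and 462 recovered reads with siOGT1 and on 1241 to 1634 in the other 4 libraries.

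**Figure D1:**
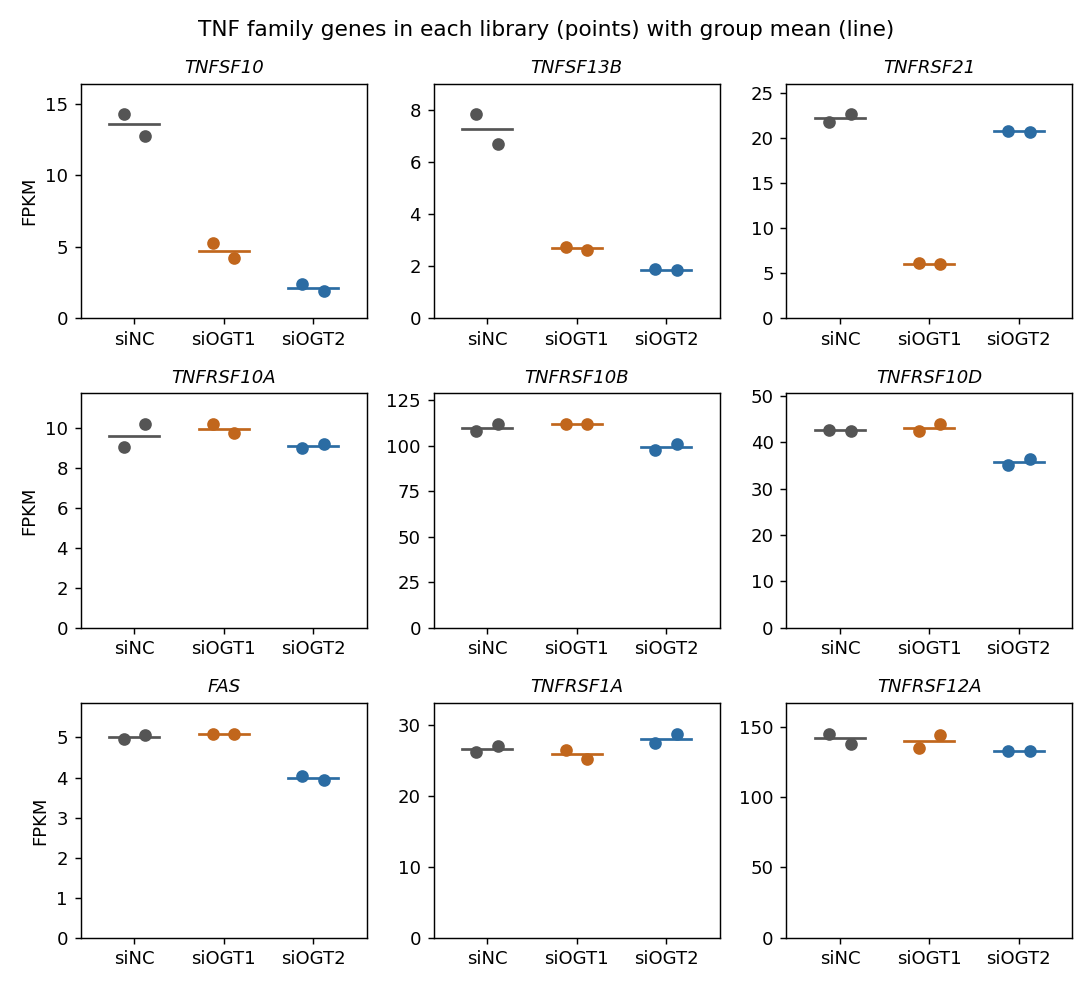
Level of each of the 9 genes in FPKM (linear axis from 0, its own scale for each gene) in the 2 libraries of siNC, siOGT1 and siOGT2; points are libraries and lines are group means. TNFSF10 and TNFSF13B step down from siNC to siOGT1 to siOGT2, TNFRSF21 is low with siOGT1 alone, and TNFRSF10D and FAS sit lowest with siOGT2.

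The TRAIL receptor genes lie side by side on chromosome 8 and are related in sequence, and the sources used here do not say how reads fitting more than 1 of them were counted. TNFRSF10B (ENSG00000120889, 23020133 to 23069179, minus strand), which encodes the death receptor DR5, was the most abundant of them, with 108 and 112 FPKM under siNC, 112 and 112 under siOGT1, and 97.8 and 101 under siOGT2. Only the siOGT2 libraries stood apart, at 90.5% of control (log2 difference -0.14, SE 0.031). TNFRSF10A (ENSG00000104689, 23190452 to 23225126, minus strand), for DR4, was at 9.04 and 10.2 FPKM under siNC, 10.2 and 9.73 under siOGT1, and 8.99 and 9.2 under siOGT2. Its groups overlapped, and the 95% intervals of its log2 difference ran from -0.08 to 0.18 with siOGT1 and from -0.20 to 0.06 with siOGT2. TNFRSF10D (ENSG00000173530, 23135588 to 23164030, minus strand) encodes a decoy receptor whose truncated death domain does not pass on the apoptotic signal. It was at 42.7 and 42.5 FPKM under siNC, 42.4 and 43.9 under siOGT1, and 35.0 and 36.4 under siOGT2. The siOGT2 libraries again lay below all others, at 83.9% of control (-0.25, SE 0.0339), while the siOGT1 difference was 0.02. The other decoy gene of this cluster, TNFRSF10C, averaged 0.0376 FPKM and was not tested. TNFRSF10C shares exons with AC107959.5 on its own strand, so its level is uncertain.

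FAS (ENSG00000026103, chromosome 10, 88990582 to 89015785, plus strand) encodes the death receptor CD95, whose ligand gene FASLG is listed at 0 in all 6 libraries. FAS stood at 4.95 and 5.05 FPKM under siNC, 5.09 and 5.08 under siOGT1, and 4.03 and 3.95 under siOGT2. The siNC and siOGT1 libraries were close together, and siOGT2 was at 79.8% of control (log2 difference -0.27, SE 0.0485). Its level cannot be ranked against other genes, because the FPKM values imply a gene length of 29313 bases, whereas the exons of FAS in GENCODE 29 cover 4253 bases. On that length the siNC mean would be 34.5 FPKM, if all the reads fell on those exons. The other 8 genes have lengths within 0.97 to 1.05 times those of GENCODE 29. The length cancels from the ratio of FAS levels between groups. Which bases the longer length covers is not given, so the reads behind that ratio may not all come from those exons. The added 1 shrinks the log2 difference of FAS more than the shorter length would.

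TNFRSF1A (ENSG00000067182, chromosome 12, 6328757 to 6342114, minus strand) encodes the main TNF receptor with a death domain, while TNF itself is listed at 0 in all 6 libraries. It stood at 26.3 and 27.1 FPKM under siNC, 26.5 and 25.3 under siOGT1, and 27.5 and 28.8 under siOGT2. The siOGT2 libraries lay slightly above the other 4, at 105% of control, and siOGT1 was at 96.9%. The 95% interval of the log2 difference was -0.13 to 0.04 with siOGT1 and -0.02 to 0.16 with siOGT2. TNFRSF12A (ENSG00000006327, chromosome 16, 3018445 to 3022383, plus strand) encodes Fn14, the receptor of TWEAK, which has no death domain. It was the most abundant of the 9, at 145 and 138 FPKM under siNC, 135 and 144 under siOGT1, and 133 and 133 under siOGT2. The siNC and siOGT1 values overlapped, and siOGT2 was at 94.1% of control (log2 difference -0.09, SE 0.0389). TNFSF12, the gene of TWEAK, averaged 0.519 FPKM. It shares exons with the read-through gene TNFSF12-TNFSF13, so its level is uncertain.

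Ranked by siNC level and leaving out FAS, the order was TNFRSF12A (142 FPKM), TNFRSF10B (110), TNFRSF10D (42.6), TNFRSF1A (26.7), TNFRSF21 (22.2), TNFSF10 (13.6), TNFRSF10A (9.61) and TNFSF13B (7.26). No neighbours in that order overlapped in their siNC libraries. With siOGT1, TNFRSF21 stood below TNFRSF10A in the ranking, at 6.03 against 9.97 FPKM. With siOGT2, TNFSF10 and TNFSF13B overlapped at the bottom, at 2.13 and 1.86 FPKM. Exons of TNFRSF10B overlap those of RHOBTB2 on the other strand, as do those of TNFRSF12A with CLDN6, FAS with ACTA2 and TNFRSF10A with TNFRSF10A-AS1 and AC100861.1. The sources used here do not say whether reads were counted by strand, so for these 4 genes reads of the partner cannot be told apart.

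**Figure D2:**
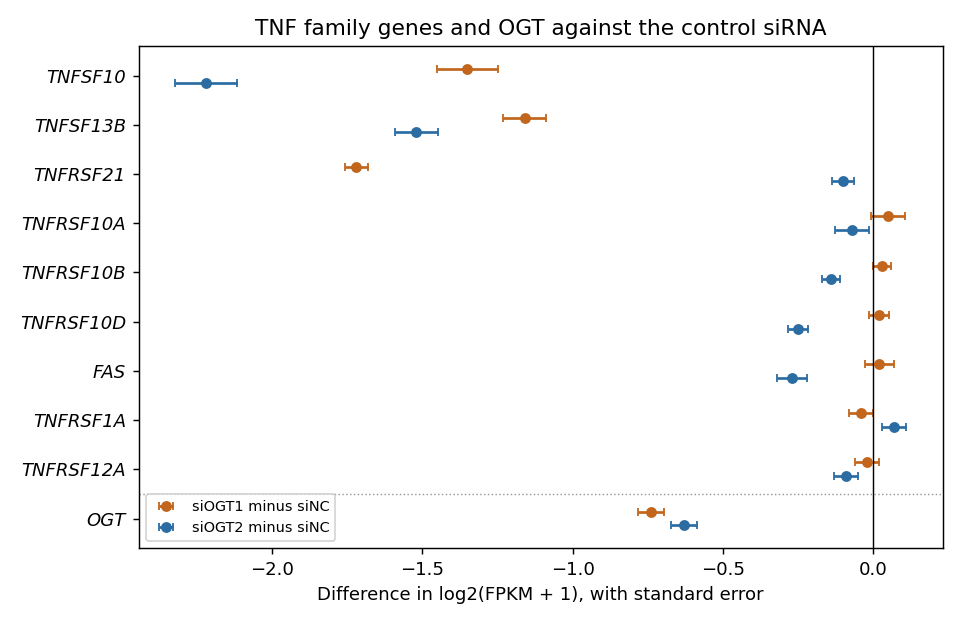
Difference from siNC in log2(FPKM + 1) for the 9 genes and OGT, with siOGT1 and siOGT2; points are fitted differences and bars their standard errors, with 2 libraries per group. TNFRSF21 lies at -1.72 with siOGT1 and at -0.10 with siOGT2, whereas OGT lies at -0.74 and -0.63.

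All 9 genes passed the filter on low values (a mean of at least 1 FPKM). A gene was called at an adjusted p under 0.05, from limma with Benjamini-Hochberg adjustment over the genes tested. Against siNC, 3 of the 9 were called lower with siOGT1 (TNFSF10, TNFSF13B and TNFRSF21), where 8.10% of all genes tested were lower, and 0 were called higher, where 9.51% of all were. With siOGT2, 5 were called lower (TNFSF10, TNFSF13B, TNFRSF10B, TNFRSF10D and FAS) beside 13.4% of all genes, and 0 higher beside 22.1%. The TNFRSF10B call with siOGT2 was lost without siNC replicate 2 or without siOGT2 replicate 1. In siOGT1 against siOGT2, 5 were called higher beside 8.35% of all genes, again TNFSF10, TNFSF13B, TNFRSF10B, TNFRSF10D and FAS, and TNFRSF21 was called lower beside 8.24%. The TNFSF13B call was lost without siOGT2 replicate 2, and the TNFRSF10B call without siOGT2 replicate 1. In 3 of the 9 all 4 knockdown libraries lay below both siNC libraries, beside 13.3% of all genes tested. The median log2 difference of the 9 was -0.019 with siOGT1 and -0.143 with siOGT2, beside 0.032 and 0.045 over all genes tested. Because the genes were picked with these contrasts known, and both siRNAs share the siNC libraries, nothing is read from these counts.

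Side by side, the siRNAs gave 3 patterns among the 9 genes. TNFSF10 and TNFSF13B were low with both and lower with siOGT2, by 0.87 (SE 0.103) and 0.36 (SE 0.0708) on the log2 scale. TNFRSF21 was low with siOGT1 and near control with siOGT2. TNFRSF10B, TNFRSF10D and FAS were near control with siOGT1, at 101% to 102% of it, and lower with siOGT2, at 79.8 to 90.5%. TNFRSF10A, TNFRSF1A and TNFRSF12A stayed between 94.1% and 105% of control in both groups, although TNFRSF12A was called lower with siOGT2 under 3 other scalings. Residual OGT differed between siOGT1 and siOGT2 by -0.11 on the same scale.

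For each gene the closest patterns among all genes tested were sought by the Euclidean distance over the 6 libraries between log2(FPKM + 1) values centred on the siNC mean. The nearest to TNFSF10 were OASL (distance 0.254), RSAD2 (0.319), BATF2 (0.331), GBP4 (0.376) and IFIT2 (0.437), against 3.69 for TNFSF10's own distance from a flat line. OASL, an interferon-induced antiviral gene, went from a mean of 81.2 FPKM in control to 35.1 after siOGT1 and 17.3 after siOGT2. The nearest to TNFSF13B, with an own size of 2.71, were IDO1 (0.114), NT5C3A (0.294), IFITM1 (0.377), THEMIS2 (0.415) and HELZ2 (0.45). The added 1 shrinks changes of low genes, so genes near TNFSF13B on this scale can differ from it in percent of control. IDO1, which encodes a tryptophan-degrading enzyme, went from 3.83 to 1.08 and 0.707 FPKM. TNFRSF21, with an own size of 2.44, had POLR1F (0.408), SLC35B2 (0.462), CNOT11 (0.589), CAP1 (0.883) and VPS4B (0.89) as its nearest, all of them low with siOGT1 alone. POLR1F, an RNA polymerase I subunit gene, had means of 42.5, 14.5 and 44.3 FPKM, and SLC35B2, a Golgi sulfate-donor transporter gene, 19.8, 6.71 and 20.7. Among the shallow patterns the nearest were TACC3 to TNFRSF10D (0.0134, own size 0.355), ZFYVE1 to FAS (0.0263, own size 0.377) and TBC1D22B to TNFRSF10B (0.0286, own size 0.211). TNFRSF10A, TNFRSF1A and TNFRSF12A had own sizes of 0.172, 0.137 and 0.152, close to the spread between libraries, so their nearest genes are not named. These distances describe 6 libraries in 3 groups and say nothing of shared control.

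**Figure D3:**
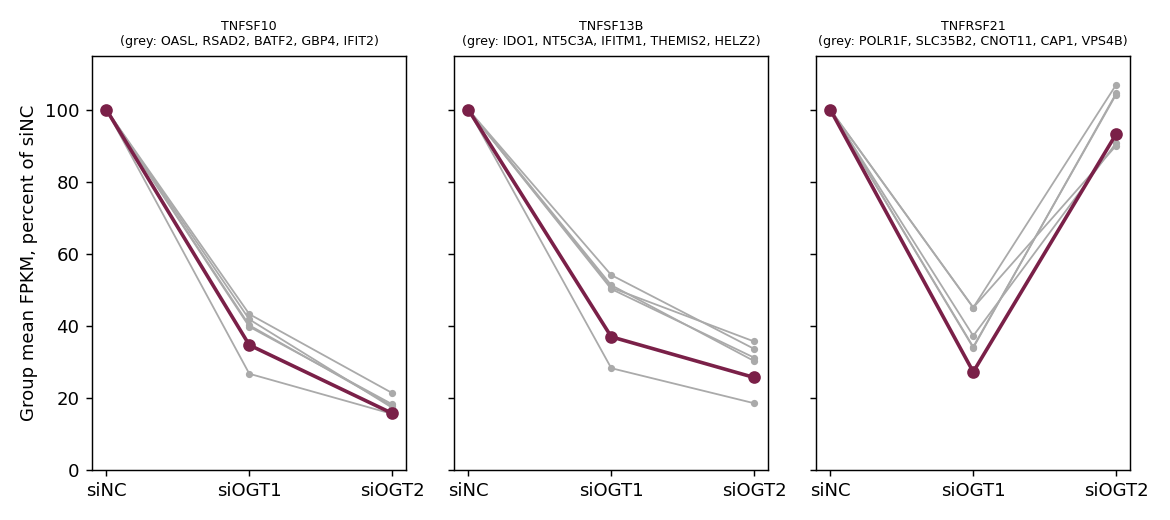
Group means as a percent of the siNC mean (linear axis from 0) for TNFSF10, TNFSF13B and TNFRSF21 in dark red and for the 5 genes nearest to each in grey; there are 2 libraries per mean. TNFSF10 and TNFSF13B and their neighbours decline through both knockdown groups, whereas TNFRSF21 and its neighbours are low with siOGT1 and near control with siOGT2.

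The rest of the pathway was read from 4 lists, 81 genes in all, of which 47 had a mean of at least 1 FPKM and were tested by limma on log2(FPKM + 1). With siOGT1, 5 of the 47 rose and 7 fell, beside 9.51% and 8.10% of all genes tested. With siOGT2, 8 rose and 12 fell, beside 22.1% and 13.4%. Leaving out either siNC library lowered the 12 calls with siOGT1 to 5, and leaving out siOGT1 replicate 2 lowered them to 7. The 20 calls with siOGT2 became 13 without either siNC library or without siOGT2 replicate 1. Both contrasts share the siNC libraries. The median log2 difference of the 47 was 0.003 with siOGT1 and 0.004 with siOGT2, beside 0.032 and 0.045 over all genes tested.

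Most of the 16 other ligand genes stood below 1 FPKM, and the 3 that were tested were all called higher with siOGT2, as were 22.1% of all genes tested. CD70, the ligand of the lymphocyte receptor CD27, rose with both siRNAs, from 13.5 ± 0.372 FPKM to 16.4 ± 0.542 with siOGT1 (log2 fold change 0.26, limma adjusted p = 0.00202) and 15.9 ± 0.0992 with siOGT2 (0.22, adjusted p = 0.00287) (SD, n = 2). TNFSF4, for OX40 ligand, rose with siOGT2 alone, from 5.69 to 7.5 FPKM (0.34, adjusted p = 0.00988), a call lost without either siNC library or without siOGT2 replicate 1. Between the siRNAs TNFSF4 differed by -0.30 (adjusted p = 0.0326), which was lost under 4 of the 6 omissions of a library. TNFSF9, for the CD137 ligand, rose from 11.8 to 13.3 FPKM with siOGT2 (0.16, adjusted p = 0.0225), also lost without either siNC library or without siOGT2 replicate 1. TNF, FASLG, TNFSF8 and TNFSF11 are listed at 0 in every library. LTA, for lymphotoxin alpha, averaged 0.372, 0.204 and 0.0992 FPKM with siNC, siOGT1 and siOGT2, too low to be tested.

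Of 22 other receptor genes 3 were tested. TNFRSF19, for the receptor TROY, rose with siOGT2 from 2.63 ± 0.017 to 4.02 ± 0.453 FPKM (log2 fold change 0.47, SE 0.0697, limma adjusted p = 0.0011), was 2.34 ± 0.0691 with siOGT1 (-0.12, adjusted p = 0.28), and differed between the siRNAs by -0.58 (adjusted p = 0.000544). Its level was highest with siOGT2, where those of TNFRSF10D and FAS were lowest. LTBR, the lymphotoxin beta receptor gene, passed with siOGT1 (0.15, adjusted p = 0.0233) and siOGT2 (0.11, adjusted p = 0.0475), from 19.4 FPKM to 21.7 and 21.0. The siOGT2 call was lost without any 1 of the siNC or siOGT2 libraries, and the siOGT1 call without either siNC library or without siOGT1 replicate 1. EDA2R, an ectodysplasin receptor gene at 68.4 FPKM with siNC, passed only between the siRNAs, where siOGT1 was higher by 0.14 (adjusted p = 0.0219), and lost that call without siOGT1 replicate 2 or without either siOGT2 library. Under another scaling EDA2R was also called lower with siOGT2 than with siNC. The decoy receptor gene TNFRSF6B is listed at 0 throughout, but shares exons with the read-through gene RTEL1-TNFRSF6B, so that value is uncertain. The osteoprotegerin gene TNFRSF11B, whose product also binds TRAIL, averaged 0.952 FPKM and was not tested.

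Of 30 genes tested that act just below the receptors, 5 fell and 2 rose with siOGT1, beside 8.10% and 9.51% of all genes tested. With siOGT2, 10 fell and 1 rose, beside 13.4% and 22.1%. In siOGT1 against siOGT2, 7 were higher and 0 lower, beside 8.35% and 8.24%. The median of the 30 was -0.017 with siOGT1 and -0.014 with siOGT2. TNFAIP3, for the ubiquitin-editing NF-kappa B brake A20, fell from 25.7 ± 0.662 FPKM to 19.3 ± 0.999 with siOGT1 (log2 fold change -0.40, limma adjusted p = 0.000383) and 14.5 ± 0.565 with siOGT2 (-0.78, adjusted p = 2.86e-06). RBCK1, for the linear-ubiquitin ligase subunit HOIL, fell from 12.4 ± 0.179 to 9.14 ± 0.765 (-0.40, adjusted p = 0.00264) and 7.45 ± 0.616 (-0.66, adjusted p = 7.8e-05). BIRC2 and BIRC3 encode cellular inhibitor-of-apoptosis ligases, which ubiquitinate RIPK1. BIRC3 fell from 8.31 ± 0.469 FPKM to 6.79 ± 0.112 (-0.26, adjusted p = 0.0154) and 5.19 ± 0.376 (-0.59, adjusted p = 8.66e-05). BIRC2 fell from 61.7 ± 0.366 to 57.0 ± 1.57 (-0.11, adjusted p = 0.0389) and 41.7 ± 0.515 (-0.55, adjusted p = 2.69e-06).

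All 4 of these genes were higher with siOGT1 than with siOGT2, by 0.39 for TNFAIP3, 0.26 for RBCK1, 0.33 for BIRC3 and 0.44 for BIRC2 (limma adjusted p = 0.000517, 0.0218, 0.00451 and 3.94e-05). The siOGT1 call of BIRC2 was lost without any 1 library other than siOGT1 replicate 2, that of BIRC3 without siNC replicate 2 or siOGT1 replicate 2, and the RBCK1 difference between the siRNAs without siOGT1 replicate 1 or siOGT2 replicate 1. CASP8, the initiator caspase of the death receptors, named after its values were seen, was at 15.2 and 14.6 FPKM under siNC, 12.9 and 12.8 under siOGT1, and 10.7 and 10.5 under siOGT2. It fell by 0.20 with siOGT1 (adjusted p = 0.00742, and 0.0676 without siNC replicate 1) and by 0.45 with siOGT2 (adjusted p = 4e-05), and it was higher with siOGT1 than with siOGT2 by 0.25 (adjusted p = 0.0026). Its 3 groups did not overlap and followed the order of TNFSF10, as did those of TNFAIP3, RBCK1, BIRC3 and BIRC2. The share of all genes tested with this order is not given. CYLD, a deubiquitinase gene, also named afterwards, fell by 0.27 with siOGT2 (adjusted p = 0.000251) and did not pass with siOGT1 (-0.08, adjusted p = 0.108). Under another scaling and in a voom fit CYLD was called lower with siOGT1 too. The adaptor genes FADD and TRADD did not pass with either siRNA. FADD stood at 2.15, 2.24 and 2.14 FPKM, with a 95% interval of -0.22 to 0.32 for its siOGT1 difference.

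Of 11 genes tested among effector caspases and the mitochondrial arm, 1 rose and 2 fell with siOGT1, and 2 rose and 2 fell with siOGT2, against the same shares of all genes. APAF1, the scaffold of the apoptosome, fell from 3.56 ± 0.0185 FPKM to 2.10 ± 0.206 with siOGT1 (log2 fold change -0.56, SE 0.0631, limma adjusted p = 0.000347). With siOGT2 it was 3.02 ± 0.0261 (-0.18, adjusted p = 0.0482), a call lost without any 1 of the siNC or siOGT2 libraries, and it was lower with siOGT1 than with siOGT2 by -0.38 (adjusted p = 0.00385). APAF1 thus shared with TNFRSF21 the order of the siRNAs, lower with siOGT1. CASP6 rose with siOGT2 from 7.87 to 10.0 FPKM (0.31, adjusted p = 0.00341). With siOGT1 it was 9.01 FPKM and did not pass (0.17, adjusted p = 0.0666), though it did under 4 alternatives, 2 of them the omission of a siOGT2 library. DFFA, for the inhibitor of the caspase-activated DNase, rose with siOGT2 from 8.10 to 9.88 FPKM (0.26, adjusted p = 0.00343). Its rise with siOGT1 (0.17, adjusted p = 0.0379) was lost without any 1 of the siNC or siOGT1 libraries. Exons of LTBR, TNFAIP3, CYLD, CASP6, APAF1, FADD, TRADD and DFFA overlap a gene on the other strand, whose reads cannot be told apart.

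**Figure D4:**
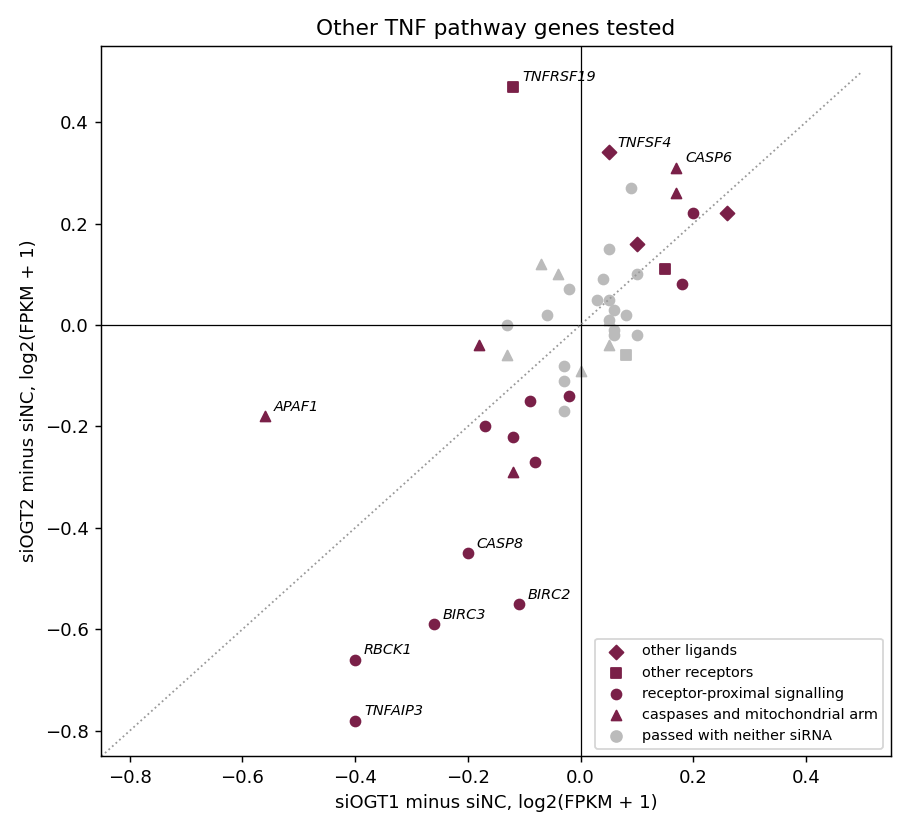
Log2 fold change on the log2(FPKM + 1) scale with siOGT1 (horizontal) and siOGT2 (vertical) for the 47 other pathway genes tested, by list; grey symbols passed the adjusted p threshold with neither siRNA, and the dotted line marks equal change. TNFAIP3, RBCK1, BIRC3, BIRC2 and CASP8 lie below the line, further down with siOGT2, while APAF1 lies above it; the axes share the siNC libraries.

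The libraries held 16756649 to 21416489 recovered reads, with a median of 766 to 976 reads per tested gene, and no library stood apart from its pair: reads varied 1.8 to 2.56 times as much as counting error between libraries of a group (chi-square per degree of freedom) and 12.26 to 35.35 times as much between groups. Of 14 granulosa markers 9 averaged at least 1 FPKM, among them FOXL2, AMH and NR5A1, while FSHR is listed at 0 in every library and CYP19A1 averaged 0.00185 FPKM. Their summed level was 89.3 to 91.9 FPKM with siNC, 93.1 to 96.8 with siOGT1 and 93.4 to 95.4 with siOGT2. None of 12 leukocyte markers averaged 1 FPKM, and 3 were at 0, FCGR3A and LYZ among them. Their sum was 1.04 to 1.1 FPKM with siNC, 0.727 to 0.832 with siOGT1 and 0.638 to 0.885 with siOGT2. It was lower in both knockdown groups, as were TNFSF10 and TNFSF13B, but unlike these it overlapped between the siRNAs. The list was not uniform. CD14 went from 0.121 and 0.362 FPKM with siNC to 0.168 and 0.0725 with siOGT2, while PTPRC went from 0.045 and 0.0483 to 0.0858 and 0.0657. The 5 endothelial markers, of which TEK averaged above 1 FPKM, summed to 2.78 to 2.95 FPKM with siNC, 2.08 to 2.45 with siOGT1 and 2.26 to 2.67 with siOGT2, so they too were lower in both knockdown groups. The part of either marker list in the TNFSF10 and TNFSF13B differences was not tested. In RNA from whole cultures, fewer cells that express a gene and less RNA per cell cannot be told apart.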

How the data were processed

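Total RNA of 6 KGN libraries was sequenced. Per the submitters' processing notes, reads were trimmed with cutadapt 1.15 and aligned to GRCh38 with HISAT2. The counting program, annotation and strand setting are not given in these sources. The deposited values are FPKM, computed by the authors for 20036 genes, and 20011 identifiers matched a gene name table. Library totals were recovered from the FPKM ratios: whole reads, within 0.01 of a read, resulted for 10546 of 10547 tested genes. They give depth and counting error only, and a voom fit added after seeing the data.

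Genes with a mean of at least 1 FPKM over the 6 libraries (10547) entered limma 3.58.1 in R 4.3.3 (a mean per group, intensity trend) as log2(FPKM + 1). The spread was shared over all 6 libraries (3 residual and 6.31 prior degrees of freedom). Tests were two-sided, adjusted by Benjamini-Hochberg over all genes tested, and called at an adjusted p under 0.05. The script was checked on simulated data.

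The 9 genes, the lists and the tests were chosen with earlier results of these data known. Named were all 9, OGT, and of each pathway list up to 4 called genes with the largest difference in any contrast; CASP8 and CYLD were added after their values were seen. Positions, exon lengths and overlaps come from GENCODE 29 and promoter sequences from RefSeq (GRCh38.p14). Some genes of the lists are counted but not reported by name here.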

Additional observations from a re-analysis of the deposited data

How the results depend on the processing

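Each contrast was refitted under 18 alternatives: other pseudocounts, low-value filters, scalings and variance models, only the groups compared, the replicate block, each library left out, and voom. TNFSF10 stayed low with both siRNAs and TNFRSF21 with siOGT1 in all of them, and TNFSF13B with both in all but the filter at a mean of 5 FPKM, which left out TNFSF13B, FAS, APAF1 and TNFRSF19. Without the low-value filter the genes called went from 1857 to 1138 (siOGT1 against siNC) and from 1750 to 1017 (siOGT1 against siOGT2). The pathway genes called went from 12 to 6 and from 12 to 7. More genes, 17114, then entered both the shared spread and the adjustment, and the part of each in the loss was not tested. With siOGT2 against siNC the 3740 calls stayed within 1.5 times under each alternative that kept all libraries. With 1 library left out, the lone library of a group being assumed to vary like the rest, siOGT1 against siNC gave 945 to 1737 genes and 5 to 11 pathway genes, siOGT2 against siNC 2222 to 3749 and 13 to 19, and siOGT1 against siOGT2 816 to 1533 and 9 to 10.

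A trimmed mean of log ratios turned the split of calls from 1003 higher and 854 lower to 548 and 1008 (siOGT1), and from 2329 and 1411 to 1374 and 1865 (siOGT2). No filter gave 498 and 640 with siOGT1. Small siOGT1 differences changed sign without being called: TNFRSF10B to -0.009, TNFRSF10D to -0.015 and FAS to -0.009 under the trimmed mean, and FAS to -0.006 under quantile normalization. With 1 library left out, the siOGT1 difference ran from -0.029 to 0.128 for TNFRSF10A, -0.005 to 0.042 for TNFRSF10D, -0.067 to 0.03 for TNFRSF12A and -0.07 to 0.162 for TNFSF4, and the siOGT2 difference from -0.149 to 0.008 for TNFRSF10A. The cause was not tested. The TNFRSF10B call with siOGT2 was lost at -0.123 and -0.117 (without siNC replicate 2 and siOGT2 replicate 1). TNFRSF21 with siOGT2 was called lower at -0.119 with equal sums and -0.144 under the trimmed mean, and TNFRSF12A with siOGT2 at -0.109 with equal sums, -0.117 under quantile normalization and -0.136 under the trimmed mean. EDA2R with siOGT2 was called lower at -0.113 under the trimmed mean. CYLD with siOGT1 was called lower at -0.114 under the trimmed mean and at -0.082 with voom. Without the low-value filter the calls of DFFA, LTBR, BIRC3 and BIRC2 with siOGT1, of APAF1, TNFSF4, TNFSF9 and LTBR with siOGT2, and of TNFSF4, TNFSF13B, EDA2R and RBCK1 between the siRNAs were lost. The trimmed mean ended those of DFFA and LTBR with siOGT1 and of TNFSF9 and LTBR with siOGT2. Without the intensity trend those of DFFA, LTBR and BIRC2 with siOGT1, of LTBR with siOGT2, and of TNFSF4 and EDA2R between the siRNAs were lost. Quantile normalization ended those of DFFA and BIRC2 with siOGT1 and of LTBR with siOGT2, equal sums that of LTBR with siOGT2, a pseudocount of 0.1 that of APAF1 with siOGT2, and voom that of TNFSF9 with siOGT2. Fitting only the groups compared ended those of BIRC2 with siOGT1 and of TNFSF4 between the siRNAs.

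With the replicate number as a block, 1773, 3636 and 1674 genes were called in the 3 contrasts. Over all genes tested, deviations of same-numbered libraries correlated at -0.02, -0.03 and 0.05. TNFSF10 and TNFSF13B were, however, higher in replicate 1 than in replicate 2 of every group. Whether same-numbered libraries share more than a number was not tested for single genes. The block ended the calls of BIRC2 with siOGT1 and of APAF1 and LTBR with siOGT2. Low read counts limit TNFSF10 and TNFSF13B with siOGT2, where counting error is 8.8% and 10%.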

Other observations

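The long length behind the FAS values has company in the same table. Of 10537 tested genes with both a recovered and a GENCODE 29 length, 82.2% had lengths within 10% of each other, and 27 had a recovered length over 5 times that of GENCODE 29. Among the pathway genes named, RBCK1 (2.67 times) and TNFAIP3 (1.27 times) are also measured over a longer length, so their FPKM levels are low for the reads they hold. TRADD is measured over a shorter length (0.85 times). The length cancels from their ratios between groups, but which bases gave the reads is not known. Among the 27 genes and the 9 genes of the TNF family, FAS is the only gene in common.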
